A study of Drosophila melanogaster with 2 samples.

Results

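The 7 small heat shock protein genes Hsp22, Hsp23, Hsp26, Hsp27, Hsp67Ba, Hsp67Bb and Hsp67Bc were examined for occupancy by Ravus, a MADF-BESS domain protein, out of 13968 protein-coding genes on the chromosome arms. They were taken by name from the Ensembl annotation of the fly genome, in which Hsp67Bb is listed as CG4456 (FBgn0001228). Every deposited peak summit inside one of these genes or within 1000 bp of its ends was collected. The sites come from chromatin immunoprecipitation with sequencing: whole Drosophila melanogaster embryos of 0 to 24 h carried an insertion expressing a Ravus-eGFP fusion, and the fusion was precipitated through its GFP tag. There was 1 group of 2 biological replicates of the same strain, and the labels name no heat treatment and no second condition. The embryos pool all tissues and all ages of the collection, so an occupied site need not be occupied in every cell. The peak signal is the authors' own value, the depth of the libraries is unknown, and a gene without a summit cannot be told from one below the detection limit.

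Small heat shock proteins are chaperones built around an alpha-crystallin domain. Hsp67Bb is the exception among the members: it is a heat shock gene of the cluster by position and name, and its product has a rhodanese-like domain in place of the alpha-crystallin domain. They assemble into large oligomers that hold unfolding proteins in a state from which other chaperones can refold them. In Drosophila most of their genes lie in the 67B cluster, where heat shock factor induces them on heat through heat shock elements, inverted repeats of the unit GAA. Several are also transcribed without heat during development, and ecdysone is a known inducer of the cluster. GAGA factor, the product of Trl, binds GAGAG repeats at these promoters and keeps them accessible before induction.

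The members were packed into 14.2 kb of chromosome arm 3L, from 9371511 to 9385694 on dm6. Hsp67Bc lay at 9371511 to 9372497 on the minus strand. Hsp67Bb (9372722 to 9374964) and Hsp22 (9372931 to 9374964) overlapped on the plus strand and shared a start site at 9372931, so a peak there cannot be given to either alone. Hsp22 had a further start site of its own at 9373997. Hsp26 (9376418 to 9377427) and Hsp67Ba (9377802 to 9379534) followed on the minus strand, then Hsp23 (9381882 to 9382765) and Hsp27 (9384063 to 9385694) on the plus strand.

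The sequences below are from the dm6 reference, and they show what lay under the peaks and what lay upstream of genes without one. The Hsp27 peak spanned chr3L:9383813-9383995 and is given whole on the plus strand, the strand of Hsp27, with the 21 bases centred on the summit in capitals.
Hsp27 peak: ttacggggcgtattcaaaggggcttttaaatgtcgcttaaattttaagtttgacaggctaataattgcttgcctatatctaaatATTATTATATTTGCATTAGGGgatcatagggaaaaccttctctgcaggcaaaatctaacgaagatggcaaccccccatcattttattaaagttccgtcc
The 200 bases just before that peak, chr3L:9383613-9383812, hold the heat shock pair of the Hsp27 upstream region, an 8-base match to GAANNTTC, in capitals.
Hsp27 upstream of the peak: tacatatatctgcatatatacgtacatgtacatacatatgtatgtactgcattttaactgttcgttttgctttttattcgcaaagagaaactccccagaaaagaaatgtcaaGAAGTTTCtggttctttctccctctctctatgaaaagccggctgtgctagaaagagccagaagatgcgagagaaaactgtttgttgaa
For the peak shared by Hsp26 and Hsp67Ba, 300 of its 310 bases, chr3L:9377445-9377744, are given on the minus strand, the strand of both genes, with the 4 matches to GAANNTTC or TTCNNGAA in capitals.
Hsp26 and Hsp67Ba peak: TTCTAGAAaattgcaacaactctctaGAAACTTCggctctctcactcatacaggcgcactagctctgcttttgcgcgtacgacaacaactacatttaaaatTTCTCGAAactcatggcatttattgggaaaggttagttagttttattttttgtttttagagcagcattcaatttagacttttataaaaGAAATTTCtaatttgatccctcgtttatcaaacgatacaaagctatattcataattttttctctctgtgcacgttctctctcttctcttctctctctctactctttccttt
For contrast, the 300 bases before the Hsp23 start site, chr3L:9381582-9381881, lay outside every thresholded peak and are given on the plus strand with 2 of its heat shock pairs, one of each kind, in capitals.
Hsp23 upstream: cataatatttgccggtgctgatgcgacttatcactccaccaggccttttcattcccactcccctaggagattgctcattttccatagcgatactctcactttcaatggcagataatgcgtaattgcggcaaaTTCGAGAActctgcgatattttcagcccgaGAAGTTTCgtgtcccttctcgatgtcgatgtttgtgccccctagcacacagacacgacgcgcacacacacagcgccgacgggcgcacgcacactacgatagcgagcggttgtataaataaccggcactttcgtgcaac
The summit of the weaker site at Hsp22 and Hsp67Bb lay inside transcribed sequence, and only the 30 bases at chr3L:9373524-9373553 are given, on the plus strand with the 21 bases centred on the summit in capitals.
Hsp22 and Hsp67Bb summit: gaaaACTTTAATTATTTGTTAATATtaagc

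The thresholded lists placed Ravus-eGFP summits at few points of the cluster. Only called peaks were read, so how broadly the fusion lay over each gene was not tested. In the conservative list, which the authors made from both replicates, 3 of the 7 members had a summit, namely Hsp27, Hsp26 and Hsp67Ba. The same was true of 11.8% of all protein-coding genes, and of 7.99% of the 5021 protein-coding genes within the members' range of lengths (884 to 2243 bp). These 3 genes were served by only 2 peaks, because Hsp26 and Hsp67Ba shared one. Measured from start sites, with a limit of 500 bp, 2 members had a conservative summit, Hsp26 and Hsp27, against 7.09% of protein-coding genes. None of the conservative summits lay inside a member.

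The further thresholded list of the series added a site, inside the overlapping Hsp22 and Hsp67Bb genes, which raised the count to 5 of 7 members against 13.4% of protein-coding genes. By start sites the count in that list was 3, with Hsp22 added, against 8.07%. The replicates differed at these weaker sites. The thresholded list of replicate 1 held a summit at 1 member, Hsp27, against 11.6% of protein-coding genes. That of replicate 2 held summits at 5 members, the same 5 as the further series list, against 14.5%. Hsp23 and Hsp67Bc had a summit in none of the 4 thresholded lists.

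**Figure D1:**
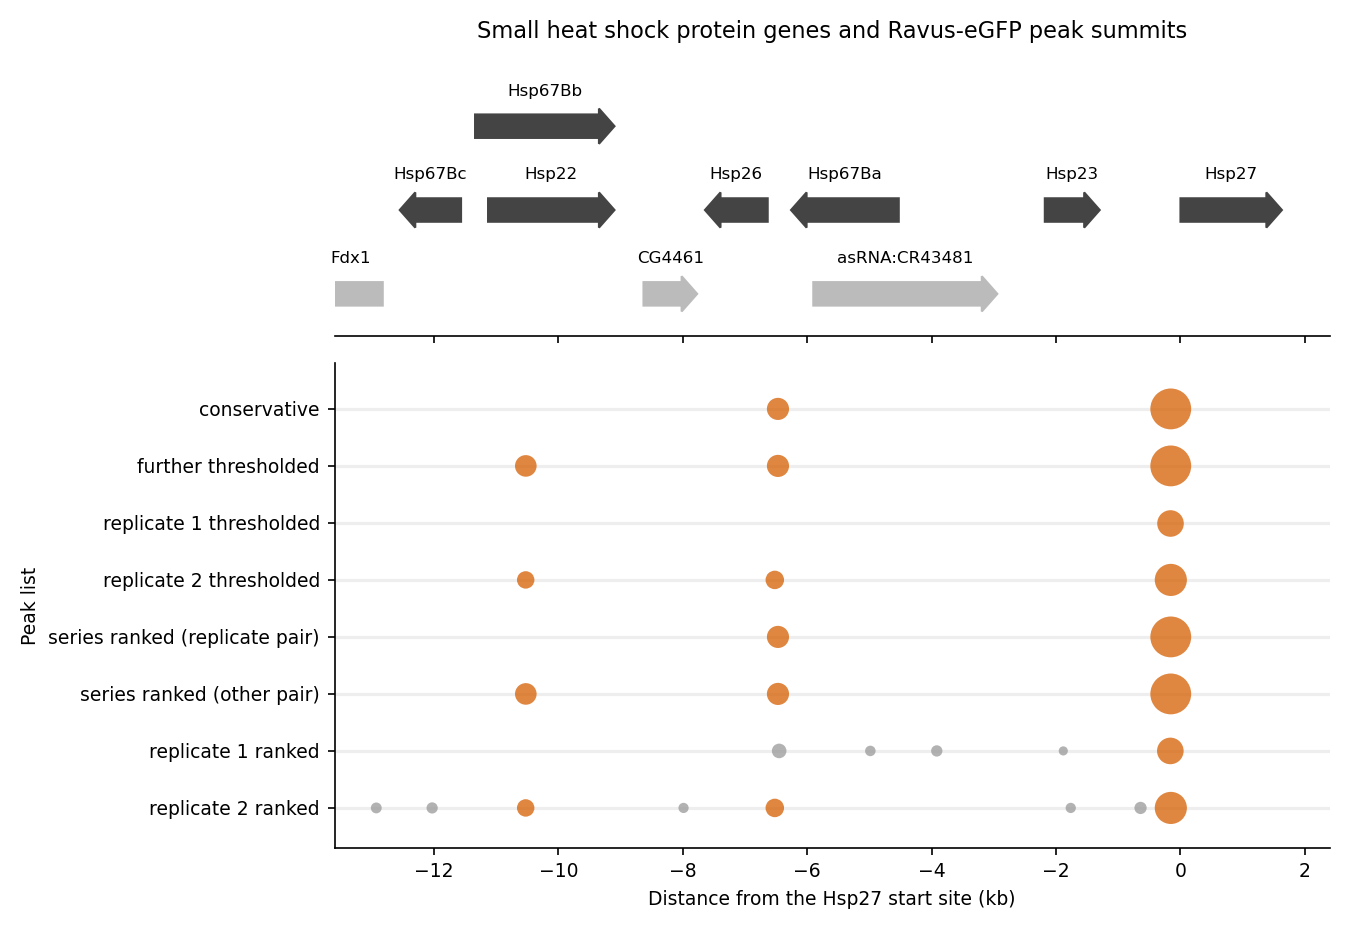
The 7 genes (dark arrows) with the neighbours Fdx1 (cut off at the left edge), CG4461 and asRNA:CR43481 (pale arrows), and below them the summits in each of the 8 peak lists, against distance from the Hsp27 start site in kb. The pseudogenes at and beyond the 3' end of Hsp27 are not drawn. Point area grows with the authors' signal, orange marks peaks within the IDR limit and grey those outside it. The Hsp27 summit is present in all 8 lists, the summit between Hsp26 and Hsp67Ba in 7 (grey in replicate 1), and the one in Hsp22 and Hsp67Bb in 4.

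Hsp27, whose product is a nuclear small heat shock protein, had by far the strongest peak of the cluster. Its signal was 372 in each of the 4 series lists, 151 in both lists of replicate 1 and 226 in both lists of replicate 2. It ranked 94 of 1474 conservative peaks, 110 of 1450 thresholded peaks in replicate 1 and 79 of 1908 in replicate 2. The site was thus in the top 7.59% of each of the 4 thresholded lists, and both replicates placed it alike.

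The Hsp27 summit, at 9383907, lay in intergenic sequence 156 bp upstream of the start site. The replicates put it 163 and 155 bp upstream, 8 bp apart, against a median of 17.0 bp between the replicates over 1467 conservative peaks matched in both. The peak reached from 250 to 68 bp upstream, so it ended before the TATAAA match that begins 28 bp before the start. It was 183 bp wide, narrower than the 310 bp at which 76.1% of conservative peaks stood. Narrow calls were usual among strong peaks, with a median width of 226 bp over the 100 strongest, none of which had the 310 bp width. No other member lay within 1000 bp, and the end of Hsp23, 1142 bp away, was the nearest.

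The peak between Hsp26, a cytosolic small heat shock protein gene, and Hsp67Ba, another gene of the family, was much weaker. Its signal was 101.3 in each of the 4 series lists, 37.1 in the ranked list of replicate 1 and 66.8 in both lists of replicate 2. It ranked 1105 of 1474 conservative peaks and 921 of 1908 thresholded peaks in replicate 2. In replicate 1 it ranked 1620 of 52143 and was left out of the thresholded list. Its −log10 of the irreproducible discovery rate (IDR, how poorly a peak's rank repeats between a pair of lists) was 1.92 there, just short of the limit of 2, against 3.15 in replicate 2. In the series ranked list that compares the 2 replicates, the value was 2.70. The conservative call at Hsp26 and Hsp67Ba was therefore made from both replicates. Taken alone, replicate 2 passed the limit and replicate 1 fell just short.

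The summit, at 9377592, lay in the intergenic stretch between the genes. It was 165 bp upstream of the outer Hsp26 start site (9377427) and 217 bp upstream of the inner one (9377375), which has a TATAAA match beginning 28 bp before it. It was also 210 bp beyond the 3' end of Hsp67Ba, but 1942 bp from the Hsp67Ba start site. The peak thus lay at the Hsp26 promoter and was counted for Hsp67Ba through its 3' end. The replicates placed the summit 70 bp apart, at 184 bp from the outer Hsp26 start in replicate 1 and 114 bp in replicate 2. Over the matched conservative peaks, 94.7% had summits at most that far apart.

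**Figure D2:**
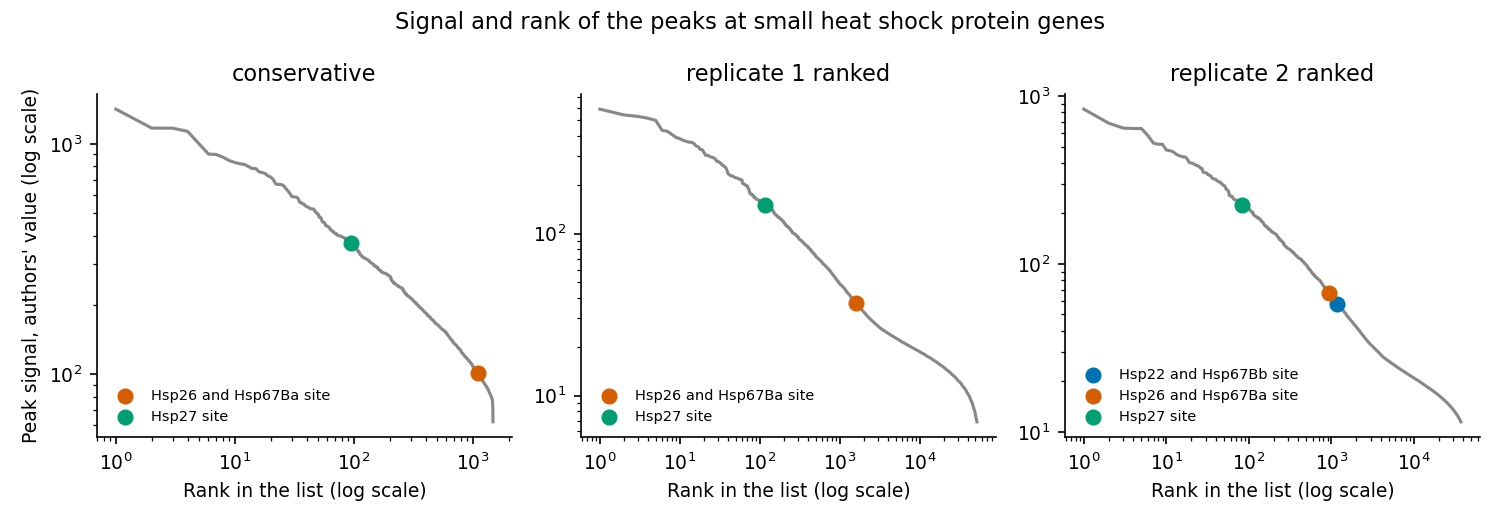
Signal against rank for every peak (grey line) in the conservative list and in the ranked lists of replicates 1 and 2, on log axes, with the member sites as points. The Hsp27 site stands at ranks 94, 117 and 83, the Hsp26 and Hsp67Ba site at ranks 1105, 1620 and 948, and the Hsp22 and Hsp67Bb site appears in replicate 2 alone, at rank 1187.

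The remaining site lay in the shared transcripts of Hsp22, which encodes a mitochondrial small heat shock protein, and Hsp67Bb. Its signal was 95.5 in the further thresholded list and in the ranked list behind it, and 58.1 in both lists of replicate 2. It ranked 1217 of 1653 in the further list and 1149 of 1908 thresholded peaks in replicate 2. The 52143 peaks of the replicate 1 ranked list included none that overlapped it, and the nearest summit of that list to Hsp22 lay 2647 bp from the gene. The site was therefore seen in replicate 2 and in series lists only.

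Its summit, at 9373538, was in an exon annotated as 3' UTR of Hsp67Bb and as 5' UTR of the longer Hsp22 transcript. It lay 459 bp upstream of the start site that Hsp22 alone uses and 607 bp downstream of the one it shares with Hsp67Bb. The peak spanned 305 to 614 bp upstream of the Hsp22 start at 9373997. Hsp67Bc, whose product is the fly relative of human HSPB8 and acts in autophagy, began 1041 bp from the summit, just outside the 1000 bp limit.

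Hsp23, a cytosolic member of the family, and Hsp67Bc had weak summits only, in the ranked lists of the single replicates. In replicate 1, Hsp23 had a summit of signal 7.32 inside its coding sequence, at rank 50661 of 52143. In replicate 2 it had one of 12.3 inside the gene, at rank 34538 of 37242, and one of 22.7 between Hsp23 and Hsp27, at rank 7737. Hsp67Bc had no summit in the ranked list of replicate 1, and summits of 17.1 and 15.3 in that of replicate 2, at ranks 18381 and 24029. The summit of 17.1 was inside Hsp67Bc and also within 1000 bp of Hsp22 and Hsp67Bb. That of 15.3 lay in an intron of the neighbour Fdx1. Hsp67Ba had further summits of 13.5 in its coding sequence and 17.6 beyond its start in replicate 1, and Hsp26 one of 12.1 in replicate 2, inside the neighbour CG4461. All these weak peaks had a −log10 IDR between 0.0306 and 0.354. At this depth of ranking most genes had a summit. The ranked list of replicate 1 held one at 4 members against 81.2% of protein-coding genes, and that of replicate 2 at all 7 against 79.7%. The series ranked lists held 3 members against 41.5% and 5 against 40.9%.

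Within replicates, the signal of the Hsp27 site was several times that of the Hsp26 and Hsp67Ba site. Between the replicates, whose scales need not match, replicate 2 stood above replicate 1 by 0.58 (log2) at Hsp27 and by 0.85 at Hsp26 and Hsp67Ba. The median over the 1467 matched conservative peaks was 0.39, with quartiles of 0.14 and 0.63, so the Hsp27 value lay inside the quartiles and the Hsp26 and Hsp67Ba value above them. Reads could be placed at all 3 sites, since every 31-base word under each peak occurred once in the genome. The same held for the whole of every member except Hsp27. There 54.2% of such words were unique, and the stretch from 9384931 to its 3' end was present in 2 copies, so missing summits over that stretch are uncertain. Over the cluster with 1000 bp at each end, 89.4% of words were unique. Repeated words thus also lay outside the members, and missing summits over them are uncertain too.

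The member summits were AT-rich to different degrees. GC content from 50 bp before to 50 bp after the summit was 33.7% at Hsp27, 25.7% at Hsp26 and Hsp67Ba, and 17.8% at Hsp22 and Hsp67Bb. Over the 1472 conservative peaks the median was 29.7%, with quartiles of 24.8% and 34.7%. The 2 conservative sites thus lay inside the quartiles, with the stronger one the more GC-rich (with 100 bp to either side, Hsp27 stood at 38.3%, above the upper quartile of 37.8%), whereas 3.60% of conservative peaks were as AT-rich as the Hsp22 and Hsp67Bb site or more so. In windows of 51 bp, GC at the summits was 29.4%, 25.5% and 15.7% in the same order. At Hsp27 it rose to 43.1% and 54.9% at 100 bp to either side, at Hsp26 and Hsp67Ba to 33.3% and 52.9%, and at Hsp22 and Hsp67Bb to 43.1% and 47.1%, against a median of 41.2% on either side over all conservative peaks. Farther out the profiles parted: at 300 bp the mean of both sides was 34.3% at Hsp27, 28.4% at Hsp26 and Hsp67Ba and 49.0% at Hsp22 and Hsp67Bb, against 45.1% over all peaks. On the far upstream side of Hsp27, 300 bp from the summit, GC was 23.5%, below the summit's own value. At Hsp26 and Hsp67Ba, 300 bp from the summit on the Hsp67Ba side, GC was 25.5%, equal to the summit's own value.

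**Figure D3:**
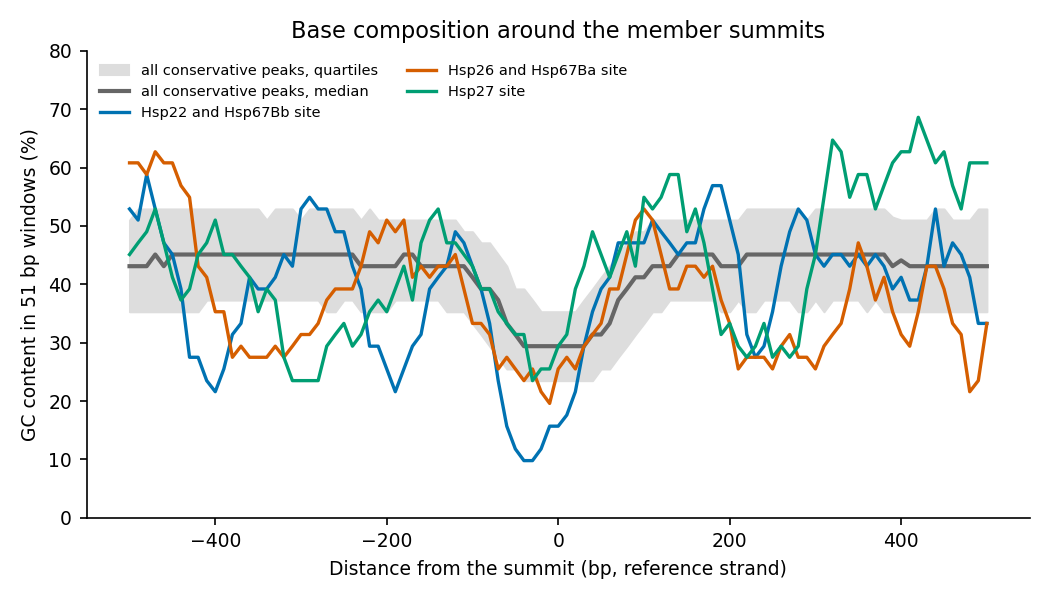
GC content in 51 bp windows against distance from the summit in bp, for the 3 member sites (coloured lines) and for all conservative peaks (dark line, median, and grey band, quartiles). Each member site has a dip around the summit, with 15.7% GC at the summit of Hsp22 and Hsp67Bb, 25.5% at Hsp26 and Hsp67Ba and 29.4% at Hsp27. The lowest points of these dips lie 10 to 40 bp to the left of the summit, at 9.80%, 19.6% and 23.5% in that order.

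Starts without a thresholded summit in the 500 bp before them had less AT-rich sequence there than starts with one, in a comparison of few genes with no test. Windows reaching 50 bp to either side of their centre were compared within the 500 bp before each start, and the most AT-rich of them held 23.8% GC at either Hsp26 start and 25.7% at Hsp27. It held 22.8% at the Hsp22 start at 9373997, where it was centred 450 bp upstream, the farthest centre that the 500 bp allow. Its closeness to the summit found there, 459 bp upstream, is thus set by that limit. The window centred on that summit held 17.8%. The values were 29.7% at Hsp67Bc, 34.7% at Hsp23, 36.6% at Hsp67Ba and 38.6% at the outer Hsp67Bb start, and the start shared by Hsp22 and Hsp67Bb stood at 29.7%. The windows at that shared start and at Hsp67Bc are the same stretch between the divergent starts, so they count once. Both Hsp26 starts likewise share the same window. The windows at the outer Hsp67Bb start, at Hsp67Ba and at the Hsp22 start at 9373997 lay inside other annotated genes. The median over protein-coding genes was 23.8%, so AT content of this degree was common at promoters. At Hsp27 the most AT-rich window, centred 440 bp upstream, was not where the summit lay.

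Heat shock pairs and GAGAG repeats stood in different places relative to the peaks. The letters were searched on both strands. Heat shock pairs were GAANNTTC and the opposite arrangement TTCNNGAA, and a longer form held 3 alternating units with 2 bases between them and so contains both pairs. The others were the GAGA factor word GAGAG, the TATA box word TATAAA, the repeat words ATATATAT and, for CA repeats, CACACA, and the nuclear receptor core word AGGTCA. The Hsp27 peak held a match to none of these 8 motifs. Its upstream GAANNTTC match lay 338 to 331 bp before the start, outside the peak, and 3 GAGAG matches lay between that match and the peak. The Hsp26 and Hsp67Ba peak held 2 matches to GAANNTTC, 2 to TTCNNGAA, 9 to GAGAG and 2 overlapping ones, on opposite strands, to TATAAA. Of the GAGAG matches, 6 were 99 to 132 bp from the summit on the Hsp26 side and 3 were 112 to 131 bp from it on the other side. The nearest heat shock pairs were centred 40 and 47 bp from the summit, on either side.

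The Hsp22 and Hsp67Bb peak held 5 GAGAG matches, all over 100 bp from the summit, and 1 CACACA match. Heat shock pairs were present upstream of members with and without a thresholded peak. Hsp23, with no such peak, had 2 matches each to GAANNTTC and TTCNNGAA in its upstream 500 bp and was the only member there with 3 alternating units, found in 0.644% of protein-coding genes. Hsp67Bc had 1 GAANNTTC match. The same bases are the match upstream of the outer Hsp67Bb start and of the start shared by Hsp22 and Hsp67Bb, so they count once. In the same 500 bp, GAANNTTC was present in 14.3% of all protein-coding genes, TTCNNGAA in 13.2%, GAGAG in 41.0% and TATAAA in 61.5%. Within 50 bp of conservative summits the shares of the first 3 were 3.80%, 2.45% and 8.15%, and within 100 bp they were 6.45%, 5.23% and 23.2%. These windows are shorter than 500 bp and hold fewer matches for that reason alone, so the shares cannot be compared. They are also shorter than most peaks. Within 50 bp of its summit, the Hsp26 and Hsp67Ba site held 1 GAANNTTC match, 2 to TATAAA, no whole match to TTCNNGAA and none to GAGAG. The TTCNNGAA match centred 47 bp from the summit was cut by the edge of that window. A match shows only that the letters are present, and overlapping GAGAG matches were counted separately.

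**Figure D4:**
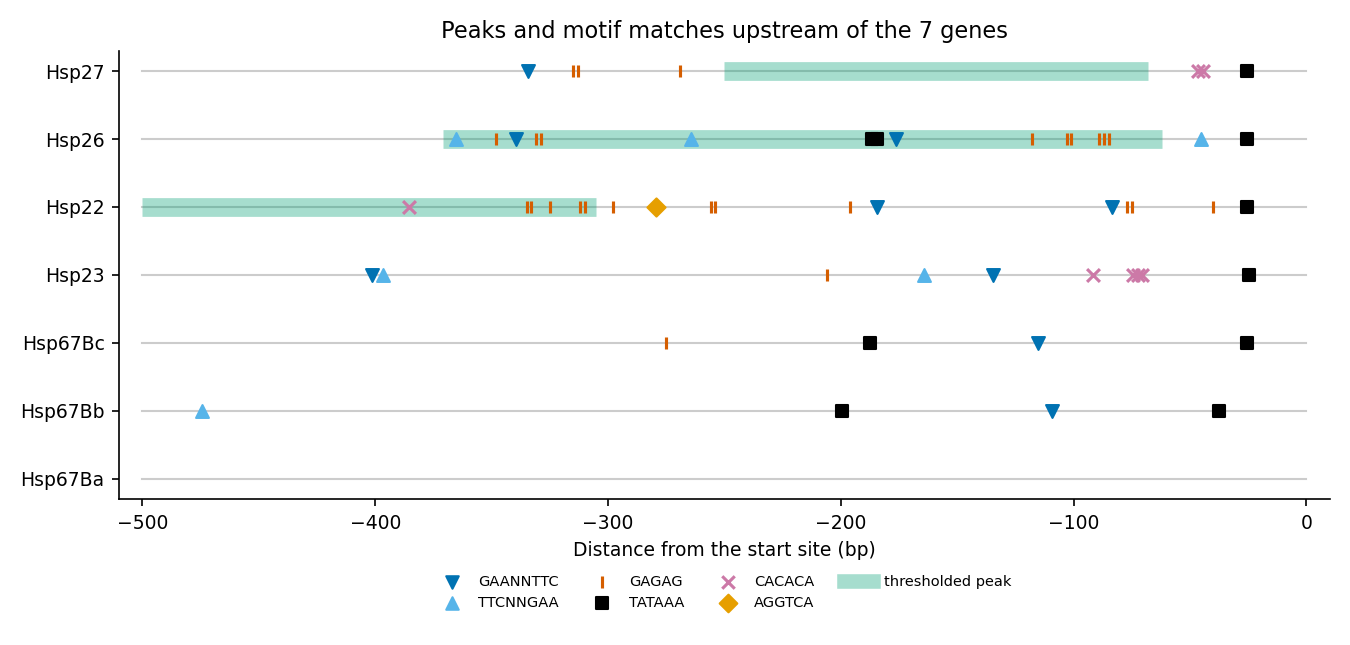
Motif matches (symbols) and thresholded peaks (green bars) in the 500 bp before a start site of each member, against distance from the start in bp, for the inner start of Hsp26, the start used by Hsp22 alone and the outer start of Hsp67Bb. The Hsp27 bar, from 250 to 68 bp upstream, holds no match, the Hsp26 bar holds heat shock pairs and GAGAG repeats, and the Hsp22 bar, which runs on past the left edge to 614 bp, comes from the further series list.

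The conservative summits of the cluster lay 6315 bp from each other, and 18.2% of the gaps between adjacent conservative summits on 3L were as short or shorter. The next summit lay 26975 bp to the right and 320 kb to the left, against a median gap of 34.8 kb on 3L. CG4461, the small heat shock gene between Hsp22 and Hsp26, had no summit in the conservative or further thresholded list. The antisense RNA gene asRNA:CR43481, which overlaps Hsp67Ba, was within 1000 bp of the Hsp26 and Hsp67Ba summit. The pseudogene CR43483 overlaps the 3' end of Hsp27, and the pseudogene CR43482 lies beyond it. Neither had a summit in the conservative or further thresholded list.

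Genes of 4 related lists were read against the same shares of protein-coding genes with a summit, 11.8% in the conservative list and 13.4% in the further list. None of 6 alpha-crystallin genes that are not members (l(2)efl, CG4461, CG7409, CG13133, CG14207 and CG43851) and none of the 7 heat-inducible genes of the Hsp70 family had a summit in either list. Of these, CG4461 lies inside the cluster. In lists this small, a count of 0 is close to what those shares give. Most of the Hsp70 genes are near-identical copies, where placing reads is uncertain. Of the 4 co-chaperone genes found in the annotation, stv had a conservative summit 574 bp upstream of its start, with a signal of 117 at rank 897. Its product Starvin is a partner of small heat shock proteins in chaperone-assisted autophagy. DnaJ-1, Droj2 and Cdc37 had none. Of the 6 regulators, 3 (Trl, foxo and br) had conservative summits, and some of these genes are long. Trl, the GAGA factor gene, had 2, with signals of 666 and 142. The stronger lay in a Trl intron, 1525 bp downstream of a start. The weaker lay 122 bp downstream of a start, in 5' UTR exons of both Trl and CG42507. The summits at foxo (91.6) and br (159) lay in introns of long genes. Hsf, which encodes heat shock factor, and the ecdysone receptor genes EcR and usp had none in that list, and EcR had 1 in the further list.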

How the data were processed

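Peak lists on dm6 were analysed for 2 replicates of Ravus-eGFP embryos, sheared by sonication to 200 to 800 bp as the labels state. The authors deposited 8 lists: a ranked and a thresholded list for each replicate, and 4 for the series. The deposited signal is the peak caller's value per peak, the deposited score is a whole number made from the IDR, and the authors' ranked lists hold its −log10, capped at 5. Every thresholded peak had a −log10 IDR of at least 2, that is an IDR of at most 0.01. No aligner or peak caller is named in the labels or file headers. Alignments and a control, not analysed here, underlie the lists, as the deposited file lists state. The ranked list behind the conservative one compares the replicates: 98.8% of its first and 98.6% of its second paired signals equal, to 3 decimals, a signal of replicate 1 and of replicate 2. Such matches were also frequent with the other replicate, at 55.7% of the first signals with replicate 2 and 42.4% of the second with replicate 1. In the other series ranked list the shares were 49.1% to 54.2%. What the other series ranked list compares is not stated.

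Genes came from Ensembl release 115, whose arms and those of the RefSeq dm6 sequence were checked against the peak coordinates, and sequence was read from RefSeq. Hsp67Bb was matched through its RefSeq synonym. Coordinates are 1-based, and ranks follow signal. A peak counted as the same in another list when they shared 1 bp or more. Python 3.11.15, numpy 2.4.6 and pandas 2.3.3 were used, and the counting was tested on simulated summits. No test was run, since there is 1 group and the members are a chosen list, so counts stand beside the share over all protein-coding genes. The members, gene lists and motifs were chosen with earlier results of these data known. Named genes were the members, genes in the cluster, and genes of 4 related lists with a conservative summit, and the other genes of these lists are named as lacking one. Of the listed co-chaperones, Hop was not found under that name.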

Additional observations from a re-analysis of the deposited data

How the results depend on the processing

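The count of 3 members at 2 sites in the conservative list was the same with a limit of 500 bp (10.5% of protein-coding genes) or with any base of the peak in place of the summit (12.1%), and a limit of 2000 bp gave 4 members, with Hsp23 added, at 2 sites (14.6%). Inside the genes alone it was 0 members and 0 sites, against 5.03% of protein-coding genes, a share at which 0 of 7 is no departure. The further thresholded list gave 5 members at 3 sites, against 13.4%. Conservative peaks above the median signal of the conservative list gave 1 member, Hsp27, at 1 site, against 6.72%. The thresholded list of replicate 1 gave 1 member, Hsp27, at 1 site, against 11.6%. That of replicate 2 gave 5 members at 3 sites, against 14.5%. These are deposited lists of their own, not the conservative list remade with a replicate left out. A limit of 500 bp from start sites, chosen after the data had been seen, gave 2 members, against 7.09%. The background share was 11.8% over protein-coding genes and 7.81% over all annotated genes, and 7.99% over protein-coding genes of the members' lengths. Matching lists by summits within 100 bp changed none of the numbers of lists that hold each site (8, 7 and 4). GC at the Hsp22 and Hsp67Bb summit moved from 17.8% to 26.9% in a window reaching 100 bp to either side. The Hsp26 and Hsp67Ba site stood at rank 1105 of 1474 conservative peaks and at 921 of 1908 in the thresholded list of replicate 2. No paired analysis was possible because there is 1 group. Depth is unknown, so absence at Hsp23 and Hsp67Bc was not separable from weak occupancy.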
